A study of Mus musculus with 6 samples.

Results

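The pro-apoptotic genes of the BCL2 family were followed in bone marrow neutrophils treated with prostaglandin E2. They were taken by gene symbol from a fixed list of 10 (Bcl2l11, Bbc3, Bid, Pmaip1, Bad, Bmf, Bik, Hrk, Bax and Bak1), and all 10 were found among the 45777 genes of the deposited table. The mice were wild-type C57BL/6, and neutrophils were purified from their marrow on a Percoll density gradient. One group was cultured for 24 h with 10 µM PGE2, a lipid mediator that signals through receptors coupled to G proteins, and the other with the DMSO vehicle for the same 24 h. Each group held 3 libraries of polyadenylated RNA, stated to be biological replicates. The labels do not say how many mice were used, nor their age or sex, so the p-values below measure the spread between these libraries. The comparison asks how PGE2 changed the RNA of these genes.

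BCL2 proteins decide whether the outer membrane of the mitochondrion stays intact. The effectors BAX and BAK form pores in it, which release cytochrome c and start the caspase cascade. Pro-survival members such as MCL1, BCL-XL and the A1 proteins hold the effectors in check, and BH3-only proteins, which share a short helix with the rest of the family, neutralize the pro-survival members or act on the effectors. Mature neutrophils are short-lived and depend on MCL1 and A1 for survival.

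Library totals ran from 42091346 to 56238941 deposited read counts. All 9 neutrophil markers examined were detected, and together they made up 70500 to 86400 CPM with PGE2 and 72500 to 80900 CPM with vehicle (CPM, the read count relative to the scaled library size). Most of this sum was S100a8 and S100a9, which averaged 17481 and 36031 CPM in vehicle and 19700 and 42090 CPM with PGE2 and were not called. Of the 9 markers 5 were lower, which the sum does not show. Of 53 markers in 10 lists, which include the neutrophil and cycling cell lists, 0 were at 0 in all libraries. Some were at low levels, so this count alone does not show that each cell type was present. RNA of other cells was found, and some of it moved with the treatment. The 7 erythroid markers summed to 15300 to 50900 CPM with PGE2, the highest in replicate 2, and to 4270 to 19900 CPM with vehicle (adjusted p of 0.0569 to 0.156 with edgeR, so that none was called). The 6 B lineage markers summed to 546 to 801 CPM with PGE2 and 350 to 475 with vehicle, and 4 were higher. The 5 eosinophil markers summed to 58 to 91 CPM with PGE2 and 116 to 228 with vehicle, with 3 lower, and the 6 monocyte and macrophage markers to 630 to 971 and 991 to 1310 CPM, with 2 lower.

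Of the 10 pro-apoptotic genes, 8 had enough reads to be tested. Bcl2l11, which encodes BIM, rose with PGE2, and Bbc3, Bmf and Bak1, which encode PUMA, BMF and BAK, fell. Bid, Pmaip1, Bad and Bax did not pass, and Bik and Hrk were at or near 0. Changes were called at an adjusted p under 0.05 over all 15947 tested genes. Of those genes 24.4% were called, 10.1% as higher and 14.3% as lower, beside 1 of 8 members higher and 3 of 8 lower. With vehicle replicate 3 left out, or with the replicate number as a block, 2 members were higher, Pmaip1 being the other. Those fits called 1174 of 15598 and 2648 of 15947 genes higher, and 19.2% and 35.5% of genes in either direction. In the 4 members that passed, the PGE2 libraries did not overlap the vehicle libraries, and in the 4 that did not pass they overlapped. Over all tested genes the groups did not overlap in 42.3%.

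**Figure D1:**
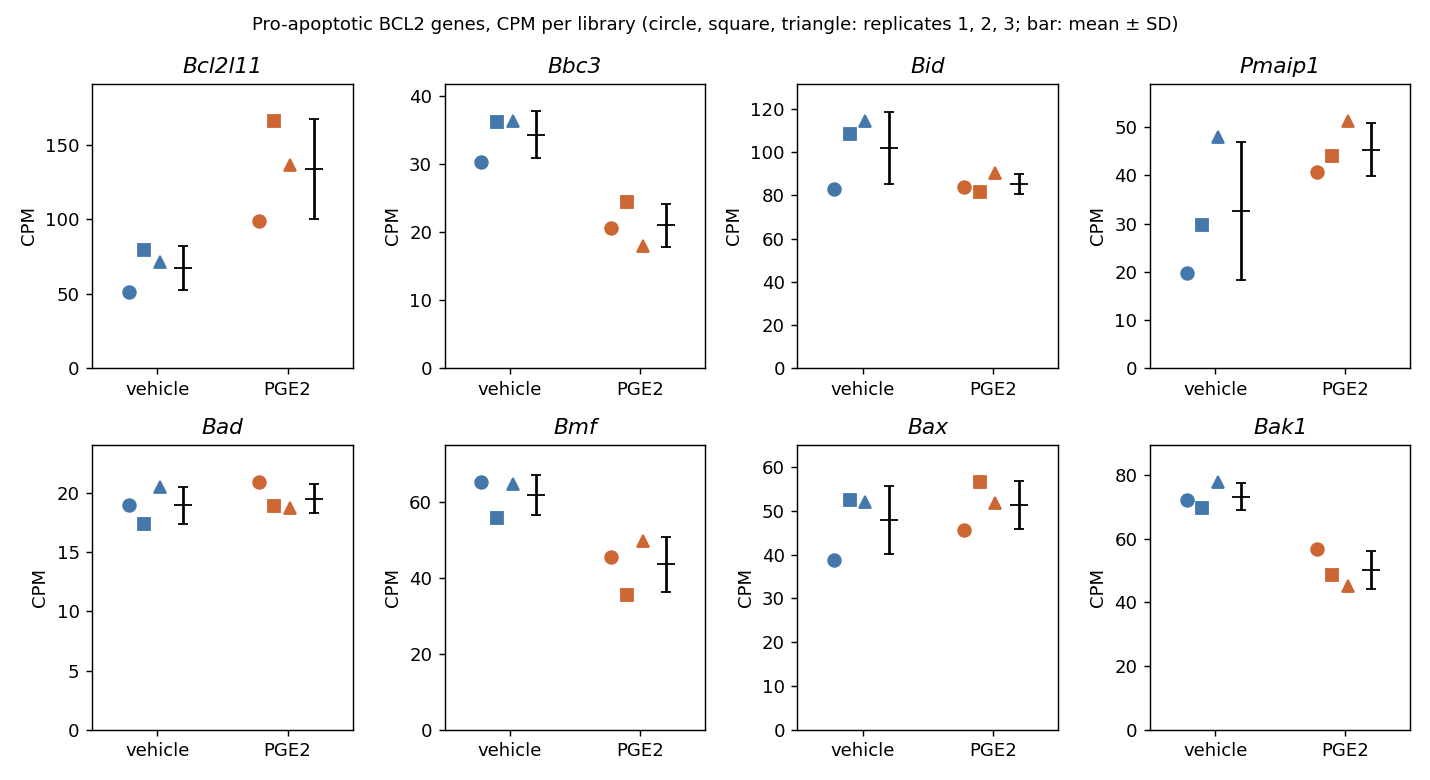
CPM of the 8 tested pro-apoptotic genes in each of the 3 vehicle (blue) and 3 PGE2 (orange) libraries, on axes that start at 0. Marker shapes give the replicate number and the black bars the mean ± SD. The PGE2 libraries lie above the vehicle libraries for Bcl2l11 (99.2 to 166 against 51.1 to 79.5) and below them for Bbc3, Bmf and Bak1.

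Promoters of the members were compared by sequence, because genes of 1 family moved in opposite directions. RefSeq (GRCm38.p6) listed windows from 250 bases before to 50 bases after a transcript start for 8 of the 10 genes, 14 windows in all; Pmaip1 and Bik were not among them. Their GC content was 53.3 to 78.0%, where the median of 32851 promoter windows was 52.7%, and they held 6 to 39 CpG dinucleotides (median 7). On both strands, the windows were searched for the FOXO site GTAAACA, the cAMP response element TGACGTCA and its shorter form TGACG (which the whole element contains), the E-box CACGTG and the GC box GGGCGG. The GC box was found in 10 of the 14 windows (35.7% of all promoters), the shorter form in 3 (20.8%), the E-box in 2 (7.15%), the FOXO site in 2 (3.65%) and the whole element in 0 (1.79%). Windows 2 and 3 of Bbc3 overlap and share GC boxes, and by gene the GC box was found at 7 of 8. The promoters they are set beside were not matched for GC content. Both FOXO matches belonged to the genes that moved oppositely, Bcl2l11 and Bbc3, and the shorter form was found at Bbc3, Bmf and Hrk. The window of Bak1 held 0 of the 5 motifs.

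The windows of Bcl2l11 and Bbc3 that hold the FOXO match (chr2:128125788-128126087 and chr7:16310011-16310310, both plus strand) and that of Bmf with 2 matches to TGACG (chr2:118549637-118549936, minus strand) are shown 5′ to 3′ for this reason. Capitals mark every match to the motifs above, read on either strand. A match describes letters in the window, and its use in these cells was not measured.
Bcl2l11: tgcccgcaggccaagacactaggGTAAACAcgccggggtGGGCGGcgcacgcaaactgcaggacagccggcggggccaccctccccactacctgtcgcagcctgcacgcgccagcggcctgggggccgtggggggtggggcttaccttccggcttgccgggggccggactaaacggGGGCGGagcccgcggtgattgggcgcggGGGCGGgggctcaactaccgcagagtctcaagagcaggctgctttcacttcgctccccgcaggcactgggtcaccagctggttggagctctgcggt
Bbc3: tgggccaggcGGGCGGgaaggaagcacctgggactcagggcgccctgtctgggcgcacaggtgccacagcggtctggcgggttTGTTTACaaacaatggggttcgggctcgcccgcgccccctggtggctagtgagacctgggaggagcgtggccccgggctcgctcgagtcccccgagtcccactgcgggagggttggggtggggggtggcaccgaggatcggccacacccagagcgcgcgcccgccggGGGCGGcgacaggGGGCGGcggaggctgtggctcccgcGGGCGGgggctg
Bmf: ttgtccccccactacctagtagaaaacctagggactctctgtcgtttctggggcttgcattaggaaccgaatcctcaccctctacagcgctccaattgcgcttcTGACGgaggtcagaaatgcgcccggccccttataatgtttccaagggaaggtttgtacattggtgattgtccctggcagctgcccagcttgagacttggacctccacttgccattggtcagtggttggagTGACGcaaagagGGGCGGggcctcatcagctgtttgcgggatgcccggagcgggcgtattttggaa

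BIM, PUMA and BID are the BH3-only proteins able to act on the effectors directly as well as to bind the pro-survival proteins. Bcl2l11 (gene ID 12125, chromosome 2, 128126038 to 128162547 of mm10, plus strand) was at 51.1, 79.5 and 71.2 CPM in vehicle replicates 1, 2 and 3 and at 99.2, 166 and 136 CPM in PGE2 replicates 1, 2 and 3. The lowest PGE2 library thus lay above the highest vehicle library. The mean went from 67.2 ± 14.6 to 134 ± 33.6 CPM (SD, n = 3), a 1.99-fold rise (95% confidence interval 1.41 to 2.80) with a log2 fold change of 0.99 ± 0.21 (SE, edgeR adjusted p = 0.0118). The spread within each group was shared between same-numbered libraries, since the log2 differences of replicates 1, 2 and 3 were 0.96, 1.06 and 0.94. With the replicate number as a block, an alternative fit, the log2 fold change was 0.99 ± 0.07 (edgeR adjusted p = 4.67e-05). PGE2 replicate 2, which held the most Bcl2l11, also held the most erythroid marker RNA, and without it the log2 fold change was 0.81 ± 0.21. The erythroid markers summed to 4270, 19900 and 11700 CPM in vehicle replicates 1, 2 and 3 and to 15300, 50900 and 23500 CPM in PGE2 replicates 1, 2 and 3. In both groups the libraries had the same order as for Bcl2l11, and each same-numbered pair was higher with PGE2. Leaving out PGE2 replicate 2 does not remove this parallel. Whether the B lineage and erythroid RNA contributed to the rise was not tested. In bulk RNA, more cells that express a gene and more of its RNA per cell cannot be told apart.

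Bbc3 (gene ID 170770, chromosome 7, 16308398 to 16318334, plus strand) moved the other way. It was at 30.3, 36.2 and 36.3 CPM in vehicle replicates 1, 2 and 3 and at 20.6, 24.3 and 18.0 CPM in PGE2 replicates 1, 2 and 3. All 3 PGE2 libraries were below all 3 vehicle libraries. The mean fell from 34.3 ± 3.42 to 21.0 ± 3.20 CPM, or -0.71 ± 0.14 as a log2 fold change (edgeR adjusted p = 0.00718), which left 0.611 of the vehicle level (0.492 to 0.760). Among the 11387 other tested genes with a mean count of at least 100, those closest to Bbc3 in log2 CPM over the 6 libraries were Foxo3 (Pearson's r = 0.995), St8sia4 (0.994) and Wipf1 (0.992), whose log2 fold changes were -0.25 ± 0.08, -0.66 ± 0.11 and -0.40 ± 0.09. These correlations include the difference between the groups and are a description. Foxo3, which encodes a transcription factor known to act on Bcl2l11 and Bbc3, had an edgeR adjusted p of 0.0592 (0.0202 to 0.180 over the alternatives) and did not pass, but was called lower with the replicate block (adjusted p = 0.0283), with DESeq2 (0.0202) and on TPM.

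Bid encodes a protein that caspase 8 cleaves to its active form, and in TPM, which also divides by transcript length, it was the highest of the BH3-only genes in every library. Bid (gene ID 12122, chromosome 6, 120893119 to 120917062, minus strand) was at 83.1, 109 and 115 CPM in vehicle replicates 1, 2 and 3 and at 83.9, 81.5 and 90.2 CPM in PGE2 replicates 1, 2 and 3. Vehicle replicate 1 was as low as the PGE2 libraries. The log2 fold change was -0.26 ± 0.13 with a 95% confidence interval of -0.55 to 0.03, and Bid did not pass (edgeR adjusted p = 0.175). Without vehicle replicate 1 it was -0.38 ± 0.09 and passed, with an adjusted p of 0.0274 (0.0274 to 0.427 over the alternatives). Casp8 was not among the partner genes that passed, with a log2 fold change of -0.04 ± 0.09.

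The remaining BH3-only proteins, NOXA, BAD, BMF, BIK and HRK, act mainly by occupying pro-survival proteins. Bmf (gene ID 171543, chromosome 2, 118528757 to 118549686, minus strand) was at 65.2, 55.9 and 64.7 CPM in vehicle replicates 1, 2 and 3 and at 45.4, 35.5 and 49.8 CPM in PGE2 replicates 1, 2 and 3. The groups did not overlap, though PGE2 replicate 3 came within a few CPM of vehicle replicate 2. The log2 fold change was -0.51 ± 0.13 (edgeR adjusted p = 0.0274), a fall to 0.704 of the vehicle level (0.568 to 0.872). This was the least stable of the 4 calls. The adjusted p was 0.0540 and 0.0594 without PGE2 replicates 1 and 2, 0.0933 and 0.0799 without vehicle replicates 1 and 3, 0.0509 and 0.0542 with limma on TPM, and 0.105 with no scaling beyond the library totals (0.00154 to 0.105 over the alternatives), with log2 fold changes of -0.62 to -0.38.

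Pmaip1 encodes NOXA, which binds MCL1 and A1 and promotes the breakdown of MCL1. Pmaip1 (gene ID 58801, chromosome 18, 66458604 to 66465558, plus strand) was at 19.8, 29.8 and 48.0 CPM in vehicle replicates 1, 2 and 3 and at 40.7, 44.0 and 51.3 CPM in PGE2 replicates 1, 2 and 3. The vehicle libraries spread more widely than the PGE2 libraries, and vehicle replicate 3 lay inside the PGE2 range. The log2 fold change was 0.48 ± 0.28 with a 95% confidence interval of -0.16 to 1.12 (edgeR adjusted p = 0.260). PGE2 was above vehicle within each replicate number, by 1.04, 0.56 and 0.10 on the log2 scale. With the replicate number as a block Pmaip1 was called higher, at 0.56 ± 0.16 with an adjusted p of 0.0268, and without vehicle replicate 3 it was called higher at 0.87 ± 0.19 with an adjusted p of 0.0212 (0.0212 to 0.510 over the alternatives).

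Bad encodes a protein that is kept inactive by phosphorylation, so its RNA level is one layer of its control. Bad (gene ID 12015, chromosome 19, 6941861 to 6951905, plus strand) was at 19.0, 17.4 and 20.5 CPM in vehicle replicates 1, 2 and 3 and at 20.9, 18.9 and 18.7 CPM in PGE2 replicates 1, 2 and 3. The groups overlapped throughout. The log2 fold change was 0.04 ± 0.11 with a 95% confidence interval of -0.21 to 0.29, so a change of more than 1.23-fold upward or to below 0.865 lay outside the interval. Bad shares 524 exon bases with Gpr137, which lies on the other strand and averaged 37.0 CPM by library totals, and the sources used here do not say if the counts were made by strand.

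Bik (gene ID 12124, chromosome 15, 83526790 to 83544635) had 12 counts in PGE2 replicate 2, 6 in vehicle replicate 3 and 0 in the other 4 libraries. Hrk (gene ID 12123, chromosome 5, 118169764 to 118189478) had 0 counts in all 6 libraries, which allows up to 0.0533 to 0.0713 CPM per library, the level of 3 counts, as far as counting error goes. Neither gene entered the test, and no fold change is given for them.

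The effectors parted. Bak1 (gene ID 12018, chromosome 17, 27019812 to 27028627, minus strand) was at 72.3, 69.6 and 77.7 CPM in vehicle replicates 1, 2 and 3 and at 56.8, 48.7 and 45.1 CPM in PGE2 replicates 1, 2 and 3. All 3 PGE2 libraries lay below the vehicle libraries. The mean went from 73.2 ± 4.17 to 50.2 ± 5.99 CPM, or -0.54 ± 0.11 as a log2 fold change (edgeR adjusted p = 0.00747), which left 0.686 of the vehicle level (0.580 to 0.812). Bak1 shares 614 exon bases with Ggnbp1 on the other strand, which averaged 1.71 CPM by library totals.

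Bax (gene ID 12028, chromosome 7, 45461695 to 45466903, minus strand) was at 38.8, 52.5 and 52.1 CPM in vehicle replicates 1, 2 and 3 and at 45.7, 56.6 and 51.8 CPM in PGE2 replicates 1, 2 and 3. The lowest library was vehicle replicate 1, and the other 5 overlapped. The log2 fold change was 0.10 ± 0.14 with a 95% confidence interval of -0.21 to 0.42 (edgeR adjusted p = 0.643). In TPM, the ratio of Bax to Bak1 was 1.24, 1.74 and 1.55 in vehicle replicates 1, 2 and 3 and 1.85, 2.68 and 2.65 in PGE2 replicates 1, 2 and 3. Every PGE2 ratio was thus above every vehicle ratio.

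**Figure D2:**
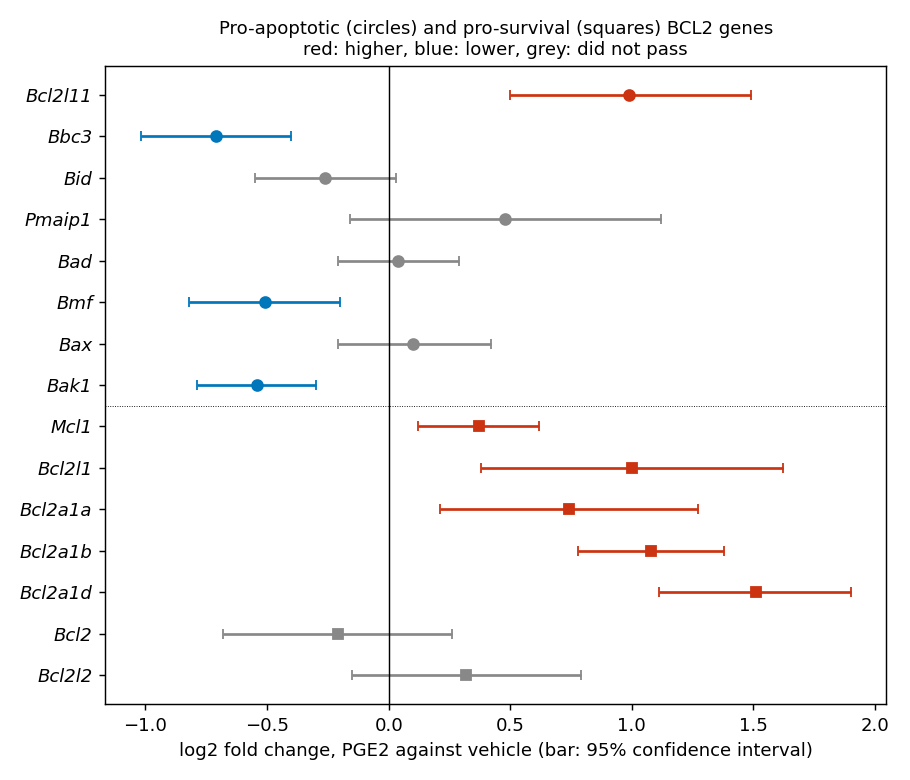
Log2 fold changes of PGE2 against vehicle from the edgeR fit, with 95% confidence intervals, for the 8 tested pro-apoptotic genes (circles, top) and 7 tested pro-survival genes (squares, bottom). Red marks genes called higher, blue genes called lower and grey genes that did not pass; 1 of 8 pro-apoptotic and 5 of 7 pro-survival genes are red.

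Set side by side per length, the order of the RNA levels changed with PGE2. In vehicle, Bax (95.8 ± 10.2 TPM) and Bid (93.5 ± 11.2) were the most abundant and overlapped, and Bak1 followed at 64.1 ± 5.66 TPM, apart from its neighbours in all libraries. Bbc3 (30.7 ± 1.48), Bad (29.3 ± 3.43), Bcl2l11 (23.7 ± 3.45), Bmf (23.5 ± 3.29) and Pmaip1 (21.3 ± 8.84 TPM) came next, and each overlapped the next in that order. With PGE2, Bax stayed first at 95.6 ± 6.42 TPM and no longer overlapped Bid at 73.3 ± 9.73 TPM. Bcl2l11, the sixth in vehicle, was the third at 43.6 ± 7.84 TPM and overlapped Bak1 at 40.8 ± 6.68 TPM. Bad (28.8 ± 3.63) and Pmaip1 (27.8 ± 4.73 TPM) overlapped each other, and Bbc3, the fourth in vehicle, was the seventh at 17.2 ± 1.37 TPM, overlapping Bmf at 15.4 ± 3.79 TPM.

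Within the BH3-only genes, Bcl2l11 and Bbc3 changed places. The ratio of their TPM was 0.679, 0.863 and 0.769 in vehicle replicates 1, 2 and 3 and 1.93, 2.72 and 3.03 in PGE2 replicates 1, 2 and 3. Bbc3 was thus the higher of the pair in all 3 vehicle libraries and Bcl2l11 in all 3 PGE2 libraries. Bcl2l11 supplied 9.77, 12.3 and 10.0% of the summed TPM of the 8 BH3-only genes in vehicle replicates 1, 2 and 3 and 17.0, 25.7 and 21.0% in PGE2 replicates 1, 2 and 3. Bbc3 supplied 13.0 to 14.4% in vehicle and 6.93 to 9.45% with PGE2. The sum itself overlapped between the groups, at 222 ± 22.3 TPM in vehicle and 206 ± 17.4 TPM with PGE2. These sums and shares describe genes already tested one by one and carry no test of their own.

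**Figure D3:**
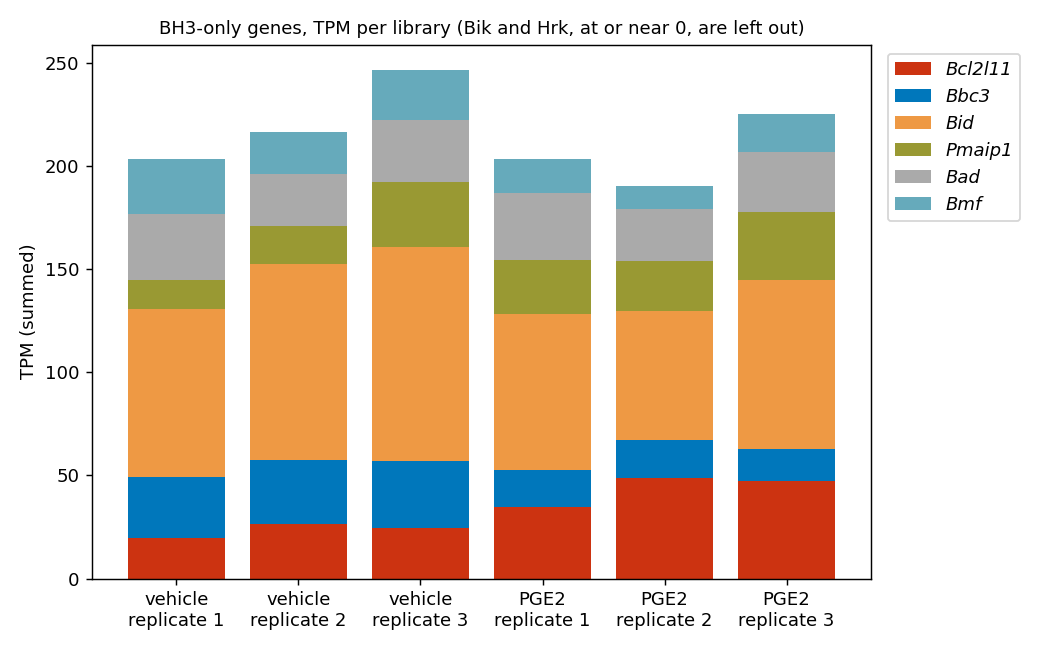
Stacked TPM of 6 BH3-only genes in each library, vehicle on the left and PGE2 on the right. The red Bcl2l11 segment is taller in the PGE2 libraries (34.6 to 49.0 TPM against 19.8 to 26.5) and the blue Bbc3 segment shorter, while the whole columns of the groups overlap.

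The pro-survival genes that bind these proteins moved mostly upward. Of 8 listed, 7 were tested, 5 rose and 0 fell (0 also at an unadjusted p under 0.05, with DESeq2 and with limma on TPM). Of all tested genes 10.1% were called higher and 14.3% lower. The median log2 fold change of the 7 was 0.74, the value of Bcl2a1a, beside 0.04 over all tested genes. Mcl1 was at 1058 ± 61.6 CPM in vehicle and 1366 ± 163 CPM with PGE2, and rose by 0.37 ± 0.11 on the log2 scale (edgeR adjusted p = 0.0411). Bcl2a1d and Bcl2a1b, which encode A1 proteins, rose by 1.51 ± 0.17 and 1.08 ± 0.13, and Bcl2a1a by 0.74 ± 0.23 on the log2 scale. These near-identical paralogs can share reads, and how such reads were divided is not stated. Their rises can therefore not be taken as separate results. Bcl2l1, which encodes BCL-XL, was at 53.6, 82.1 and 57.7 CPM in vehicle replicates 1, 2 and 3 and at 99.7, 187 and 99.5 CPM in PGE2 replicates 1, 2 and 3. It rose by 1.00 ± 0.27, was highest in the PGE2 library with the most erythroid marker RNA, and was at 0.63 ± 0.18 without that library (adjusted p = 0.0533). Erythroid cells are known to express Bcl2l1, and their part in its rise was not tested. Bcl2 itself was at 5.56 ± 0.429 and 4.80 ± 1.09 CPM, with a log2 fold change of -0.21 ± 0.20.

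Some of these pro-survival calls were lost when single libraries were left out. Between 2 and 4 of the 7 genes were higher when 1 library was left out. Without PGE2 replicate 1 and without vehicle replicates 1 and 2 the number was 3, and without PGE2 replicate 2 and without vehicle replicate 3 it was 2. Calls over all tested genes also fell in these fits. They called 1005 to 1541 genes higher, against 1618 with all 6 libraries, and 16.7 to 24.3% in either direction, against 24.4%. Mcl1 did not pass without PGE2 replicates 1 and 2 and vehicle replicates 1, 2 and 3 (adjusted p of 0.0687 to 0.134) or on TPM (0.107 and 0.109; 0.00735 to 0.134 over the alternatives), Bcl2l1 not without PGE2 replicate 2 and vehicle replicates 1 and 3 (0.000159 to 0.0897 over the alternatives), and Bcl2a1a without any 1 of the 6 libraries, being called under 4 of 14 alternatives (0.0340 to 0.138 over the alternatives). The summed TPM of the 8 pro-survival genes was 605 ± 21.9 in vehicle and 768 ± 50.1 with PGE2. Most of this sum was Mcl1, at 532 ± 27.9 TPM in vehicle and 634 ± 52.4 TPM with PGE2. The sum therefore describes mainly 1 gene and not the whole list. Divided by the BH3-only sum, it was 3.01, 2.69 and 2.53 in vehicle replicates 1, 2 and 3 and 3.97, 4.12 and 3.17 in PGE2 replicates 1, 2 and 3, so that every PGE2 library lay above every vehicle library. Of 8 other tested BCL2-related genes 0 passed (0 also at an unadjusted p under 0.05, with DESeq2 and with limma on TPM), beside 24.4% of all tested genes. Those with the smallest p were Bnip2 at -0.19 ± 0.10, Bnip1 at 0.30 ± 0.15 and Bcl2l12 at 0.30 ± 0.18.

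Genes whose products act on the pro-apoptotic proteins moved in part. Of 12 partner genes, 2 rose and 0 fell (1 lower at an unadjusted p under 0.05 and 1 with DESeq2, 0 with limma on TPM), beside 10.1% and 14.3% of all tested genes. Dynll1, whose light chain holds BIM on the cytoskeleton, rose from 38.9 ± 1.25 to 63.9 ± 6.84 CPM (0.71 ± 0.10). Mtch2, which encodes a mitochondrial receptor for cleaved BID, rose by 0.36 ± 0.09, and was not called without PGE2 replicates 1 and 2 and vehicle replicates 2 and 3, or on TPM, each of which left 1 gene higher (adjusted p of 0.00749 to 0.652 over the alternatives). Ywhae, of the family that sequesters phosphorylated BAD, was at 0.26 ± 0.08 with an adjusted p of 0.0551, and was called higher with the replicate block (adjusted p = 0.0275), with library totals alone (0.0298), with DESeq2 (0.0298) and with the minimum of 50 counts (0.0378; 0.0275 to 0.463 over the alternatives). Without PGE2 replicate 1, 1 partner gene was lower.

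Of 14 kinase and phosphatase genes known to act on BAD or BIM, 3 rose and 5 fell, beside 10.1% and 14.3% of all tested genes. Their median log2 fold change was -0.08. Pim2 and Pim1, whose kinases phosphorylate BAD, rose by 0.80 ± 0.10 and 0.60 ± 0.12. Rps6ka1, whose kinase also phosphorylates BAD, was at 366 to 383 CPM in vehicle and 202.5 to 229 CPM with PGE2 (log2 fold change -0.81 ± 0.08), and Akt1 averaged 448 ± 41.9 and 289 ± 15.8 CPM (-0.63 ± 0.10). The kinases of this list that target BAD thus moved in both directions. Mapk8, whose kinase JNK1 phosphorylates BIM and BMF, rose by 0.41 ± 0.10, and was not called without PGE2 replicate 2 and vehicle replicates 2 and 3, or on TPM (adjusted p of 0.00681 to 0.285 over the alternatives).

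Among 12 tested genes for transcription factors known to act on pro-apoptotic BCL2 genes, 1 rose and 1 fell, with a median of -0.11. Of all tested genes 10.1% were called higher and 14.3% lower. Atf4, the factor of the integrated stress response that acts on Pmaip1 and Bbc3, went from 161 ± 5.09 to 274 ± 19.6 CPM (0.77 ± 0.08). Nr3c1, the glucocorticoid receptor gene, fell by 0.51 ± 0.09. With the replicate block 2 of these genes rose and 3 fell, where 35.5% of all tested genes were called. Trp53, which encodes p53, the best known activator of Bbc3, Pmaip1 and Bax, was at 42.6 to 48.9 CPM in vehicle and 37.2 to 46.7 CPM with PGE2 (-0.15 ± 0.11) and did not pass.

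Of 22 tested p53 targets outside the family, 2 rose and 3 fell, beside 10.1% and 14.3% of all tested genes. Their median was -0.02. Cdkn1a, which encodes the cell cycle inhibitor p21, averaged 14.4 ± 1.59 CPM in vehicle and 131 ± 46.5 CPM with PGE2 (3.19 ± 0.24), and Plk2 went from 5.75 ± 1.07 to 27.4 ± 5.92 CPM (2.26 ± 0.20). Trp53inp1, Xpc and Rrm2b had log2 fold changes of -0.78 ± 0.10, -0.76 ± 0.10 and -0.40 ± 0.09. Rrm2b was not called with library totals alone (-0.30, adjusted p = 0.0817; 0.000638 to 0.0817 over the alternatives). The p53 targets that were lower numbered 5 without vehicle replicate 1. Of 12 integrated stress response genes, 3 rose and 0 fell (1 lower at an unadjusted p under 0.05 and 1 with DESeq2, 0 with limma on TPM), beside the same shares of all tested genes. The median was 0.17, and the other 9 did not pass. Those that rose were the cystine transporter gene Slc7a11 (1.03 ± 0.13), the chaperone gene Hspa5 (0.54 ± 0.09) and the phosphatase regulator gene Ppp1r15a (1.85 ± 0.46). Ppp1r15a was not called without PGE2 replicate 2 and vehicle replicates 1 and 3 (adjusted p of 6.88e-05 to 0.0709 over the alternatives).

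Downstream of the mitochondrion, 1 of 11 apoptosome and caspase genes rose and 4 fell, with a median of -0.09. Xiap, which encodes a caspase inhibitor, went from 199 ± 9.53 to 142 ± 7.18 CPM (-0.48 ± 0.08), and Diablo, whose product relieves that inhibition once released, from 20.5 ± 0.485 to 29.5 ± 1.36 CPM (0.53 ± 0.09). Without PGE2 replicate 2, PGE2 replicate 3, vehicle replicate 2 or vehicle replicate 3, 2 of these genes were lower, and without vehicle replicate 1, 2 were higher.

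The calls of Bcl2l11, Bbc3 and Bak1 held under each of 14 alternatives in scaling, filter, test and library set, with log2 fold changes of 0.81 to 1.18, -0.84 to -0.60 and -0.66 to -0.45 and adjusted p of at most 0.0368, 0.0325 and 0.0317. Bmf was called under 7 of the 14. The sign of Bad and Bax changed under some of them. Scaling moved the balance of all calls: of the genes called by edgeR, 41.5% were higher with TMM factors and 55.5% with library totals alone, where the median log2 fold change of all tested genes was 0.04 and 0.13. With limma on log2(TPM + 1), which also differs in test, filter and length division, 30.0% of the called genes were higher and the median over 12621 tested genes was -0.06.

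**Figure D4:**
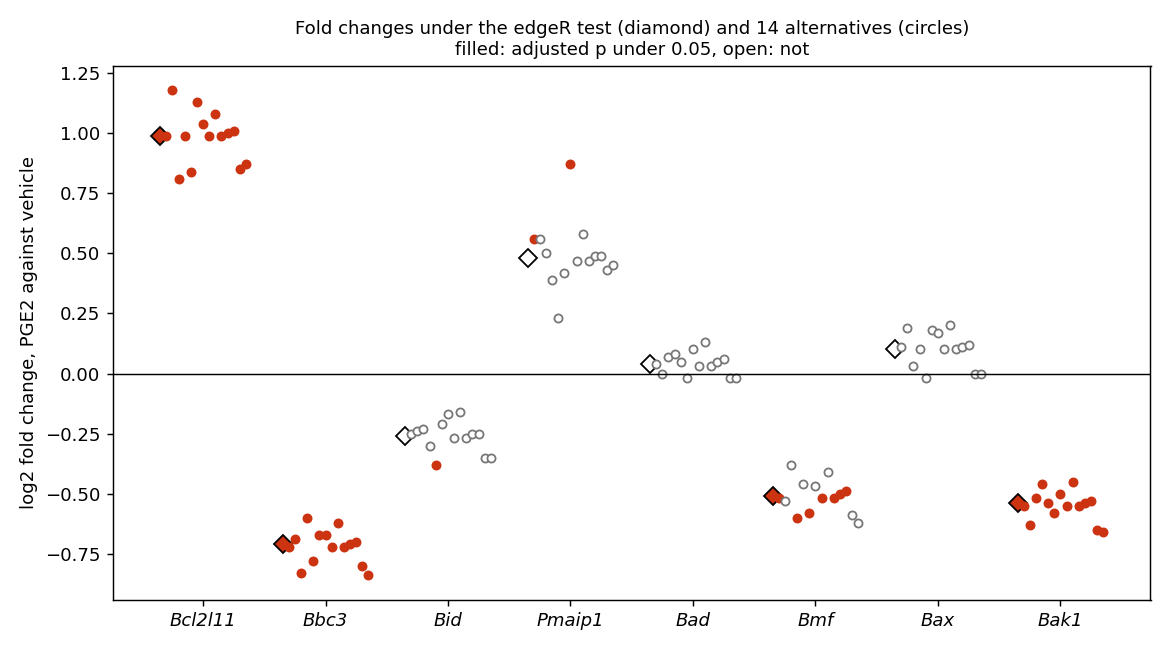
Log2 fold changes of the 8 tested genes under the edgeR fit (diamonds) and 14 alternatives (circles), filled where the adjusted p was under 0.05. All points of Bcl2l11, Bbc3 and Bak1 are filled, 7 of the circles of Bmf are open, and those of Bad and Bax lie around 0.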

How the data were processed

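Polyadenylated RNA of bone marrow neutrophils was sequenced from 3 PGE2 and 3 vehicle cultures, with groups and replicate numbers as titled. The submitters' processing notes name mm10 and the tools DESeq2, RSEM, STAR, Bowtie2 and StringTie 2.1.3b. Which of them made which values, and any use of strand, are not given in the sources used here, and the labels describe the library kit as standard and as stranded. The authors deposited estimated counts per gene as whole numbers with unequal totals, used here as unnormalised, and TPM. In 384 of 397 genes with a single exon and 200 counts or more, the deposited coverage times length per count came to 101 bases after rounding, so the counts are of reads and not fragments. The table also held 18 columns of other libraries, which were not used.

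Genes with at least 10 counts in at least 3 libraries (15947) were tested with edgeR 4.0.16 (quasi-likelihood, TMM scaling, two-sided, Benjamini-Hochberg over all tested genes) in R 4.3.3. Estimated counts were rounded first. Errors are SDs of CPM or TPM and SEs of log2 fold changes. The members, gene lists and alternatives were chosen with earlier results of these data known. The named genes were all 10 members, the pro-survival genes Mcl1, Bcl2, Bcl2l1 and Bcl2a1, from each list the 3 genes lowest in adjusted p and at most 2 further genes called in the opposite direction, and the 3 genes most like the member with the smallest p; Trp53 and Casp8 were added after their values were seen, and 1 gene that the rule names is not reported here. On simulated data for this comparison (15484 genes tested, 200 changed), the test found 13.8% of 1.5-fold, 56.9% of 2-fold and 82.8% of 4-fold changes, and 9.17% of its calls were false. The changed genes were drawn from all levels and were a smaller part than the 24.4% called in the data. These shares therefore need not hold for the members.

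The deviations of same-numbered libraries from their group means correlated at 0.26, 0.17 and 0.19, and those of other pairs at -0.17 to 0.0019. The replicate numbers, which come from the titles, may therefore pair the libraries. The labels state no block, so the main fit had none, and its p-values ignore any pairing. It called 24.4% of genes, against 35.5% with the block. The fit with that block was an alternative. The others left out 1 library at a time, or used size factors or the Wald test of DESeq2 1.42.0, library totals alone, no filter, at least 50 counts, and limma 3.58.1 on log2(TPM + 1) or log2(TPM + 0.1) where 3 or more libraries reached a TPM of 1. Gene coordinates in the files equalled RefSeq GRCm38.p6 for 96.4% of matched genes.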

Additional observations from a re-analysis of the deposited data

How the results depend on the processing

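Depth does not limit the tested members, each with at least 697 counts per library. The simulation missed most changes of 1.5-fold, but its share need not hold for the members. It changed 200 genes of all levels, where 24.4% of genes were called in the data. Bak1 and Bmf were called at 0.686 and 0.704 of the vehicle level. The members that did not pass are still not shown to be unchanged. Of 18 counts of genes called, 8 stayed within 1.5 times under all 14 alternatives. With the replicate block, 2 members, 2 transcription factor genes and 2 apoptosome and caspase genes were higher, and 1 partner gene, 3 transcription factor genes and 1 stress response gene were lower; among the members the block changed the call of Pmaip1 alone. With DESeq2's Wald test 1 partner gene, 2 transcription factor genes and 1 stress response gene were lower. That test called 29.1% of all tested genes, 2662 of them lower. With library totals alone, 2 transcription factor genes and 2 apoptosome and caspase genes were higher and 2 apoptosome and caspase genes lower. Over all genes 2186 were higher and 1752 lower there (24.7% called). On TPM, with either pseudocount, 3 pro-survival genes and 1 partner gene were higher, and 2 transcription factor genes and 5 p53 targets lower. The 2 TPM fits called 25.5% and 25.1% of all tested genes. With 1 library left out, 1 to 2 members, 2 to 4 pro-survival genes, 1 to 2 partner genes and 1 to 2 apoptosome and caspase genes were higher, and 0 to 1 partner genes, 3 to 5 p53 targets and 2 to 4 apoptosome and caspase genes lower. Those fits called 16.7 to 24.3% of all tested genes. The log2 fold change of Bad changed sign to -0.02 on TPM with either pseudocount, to -0.002 without PGE2 replicate 1 and to -0.02 without vehicle replicate 2. That of Bax was -0.02 to 0.19 with 1 library left out, the lowest without vehicle replicate 1, -9e-05 on log2(TPM + 1) and -6e-05 on log2(TPM + 0.1). Over all genes, 1618 were higher and 2278 lower, against 2648 and 3009 with the replicate block, 1063 and 1713 without PGE2 replicate 2, and 1005 and 1627 without vehicle replicate 2. On log2(TPM + 1) 967 were higher and 2256 lower, and on log2(TPM + 0.1) 953 and 2211. The cause of these shifts was not tested.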
